A study of Mus musculus with 6 samples.

Results

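The genes described here encode the oxidative stress factor NRF2, its sensor, and the glutathione, thioredoxin, peroxiredoxin, NADPH and ferritin systems that handle reactive oxygen and iron in mouse cells. The 35 members were chosen by gene symbol, and all 35 were found among the 21899 genes listed for each sample, each under 1 identifier. All 35 had enough reads to be among the 12768 genes tested. They were measured by bulk mRNA sequencing in induced regulatory T cells (iTregs), made by culturing splenic CD4+ T cells for 2 days under Treg polarising conditions. The KO group (3 samples) came from mice labelled Dlst-Treg iKO, and the WT group (3 samples) from mice labelled iWT. Both groups received 4-hydroxytamoxifen, the ligand that switches on tamoxifen-inducible Cre. Both were sorted as CD4+, FoxP3-GFP+ and tdTomato+ cells. Medium of both groups contained β-mercaptoethanol, a thiol reducing agent. The sources used here do not give ages, the driver of the deletion or whether samples came from separate animals. The p-values therefore cover only how much these samples vary, and part of that may be technical.

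NRF2, encoded by Nfe2l2, is a transcription factor that is held back by KEAP1, a thiol-rich adaptor that directs it to the proteasome. When cysteines of KEAP1 are modified by oxidants or electrophiles, NRF2 escapes and, with a small MAF partner, binds antioxidant response elements in genes for glutathione synthesis, quinone reduction, heme breakdown and iron storage. BACH1 competes for the same elements and is released by heme. In activated T cells glutathione and thioredoxin are needed for growth and DNA synthesis. Dlst encodes a subunit of 2-oxoglutarate dehydrogenase, a mitochondrial enzyme that makes succinyl-CoA and NADH.

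The sequences below are the upstream stretches that hold the core of the antioxidant response element, the letters TGACNNNGC, which NRF2 binds. The members were not chosen by this element. RefSeq windows (GRCm38.p6) matched 30 of the 35 members by symbol, with 40 windows, since a gene may have several annotated starts. The motif was searched on both strands in the 250 bases before each start. It was found in 6 of the 30 members (20%), against 3112 of 27025 genes in the whole table (11.5%). Counted by window, it was in 6 of 40, against 3338 of 32851 (10.2%). Capitals mark the motif, and 5 of the 6 carry it as its reverse complement.
Nfe2l2, chr2:75704875-75704913, minus strand: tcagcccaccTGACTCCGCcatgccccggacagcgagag
Gclm, chr3:122245403-122245451, plus strand: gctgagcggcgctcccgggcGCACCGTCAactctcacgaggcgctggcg
Prdx1, chr4:116685446-116685494, plus strand: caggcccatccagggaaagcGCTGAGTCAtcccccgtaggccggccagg
Txnrd1, chr10:82859094-82859142, plus strand: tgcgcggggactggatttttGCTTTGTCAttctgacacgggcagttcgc
Sod1, chr16:90220686-90220734, plus strand: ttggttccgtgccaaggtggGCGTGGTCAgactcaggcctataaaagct
G6pdx, chrX:74428909-74428957, minus strand: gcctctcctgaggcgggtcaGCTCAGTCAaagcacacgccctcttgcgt
The motif begins 240 bases before the RefSeq start of Nfe2l2, 134 before Gclm, 133 before Prdx1, 57 before G6pdx and 56 before Sod1. In Txnrd1 it begins 92 bases before 1 of 3 RefSeq starts, which lies inside the gene, so that the motif is 25163 bases after the gene's first start in GENCODE M21. The G6pdx motif also lies inside the gene's GENCODE span, 257 bases after its start there. Of the 8 members with the smallest p-values, described in what follows, Nfe2l2 and Gclm hold these letters, while Nqo1, Gstm1, Fth1 and Ftl1 do not in this window. The names not in the table were Hmox1, Gclc, Gsr, Gsta4 and Prdx6.

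Libraries of replicates 1 to 3 held 49.8, 33.6 and 39.0 M (10⁶) estimated counts in KO and 35.6, 47.5 and 46.4 M in WT. Dlst mRNA was 125 to 129 CPM in KO, against 149 to 161 CPM in WT, where CPM are counts per 10⁶ counts of the library, scaled by TMM. It did not pass the threshold of 0.05 (log2 fold change -0.26, edgeR adjusted p = 0.0894), and the value covers the whole gene rather than the deleted part. Foxp3, the defining Treg factor, was at 207 to 231 CPM in KO and 154 to 202 CPM in WT. Summed over 7 T cell and Treg markers, levels were 3105 to 3483 CPM in KO and 3237 to 3688 CPM in WT. Most of that sum was Il2ra, at 1827 to 2241 CPM in KO and 1923 to 2362 CPM in WT. Foxp3 was the 1 marker of the 7 with a log2 fold change above 0, and 1 of them, Ikzf2, fell in KO. Cd4 was at 432 to 465 CPM in KO, below the 506 to 522 CPM of WT (log2 fold change -0.19, edgeR adjusted p = 0.151). Cd3d was also lower in KO without overlap. The replicate 1 libraries stood apart in both groups. Variation between KO replicates beyond counting noise, by edgeR, was 14.3 and 12.5% for the pairs with replicate 1 and 3.0% for replicates 2 and 3. Between WT replicates it was 14.4 and 14.8% for the pairs with replicate 1 and 7.1% for replicates 2 and 3. KO replicate 1 differed by sex-linked and myeloid mRNAs. Its Y-linked mRNA Ddx3y stood at 80.8 CPM, against at most 0.0257 CPM in each of the other libraries. Its neutrophil markers summed to 309 CPM over 10 genes, while KO replicates 2 and 3 were at 78.4 and 76.0 CPM and the WT libraries at 5.94 to 33.7 CPM. Its 15 monocyte and macrophage markers summed to 387 CPM, with 106 and 117 CPM in KO replicates 2 and 3. WT replicates 1 to 3 were at 35.005, 25.6 and 23.4 CPM. Lyz2 alone gave 316 CPM of the sum in KO replicate 1, which was the highest library for 10 of the 15 markers. C1qa, C1qb and C1qc had too few reads to be tested, and Marco and Vcam1 overlapped between groups. In these lists all 9 tested neutrophil markers and all 12 tested macrophage markers were above 0 in log2 fold change, and Mrc1 and C3ar1 rose over all genes. Of 3 tested dendritic markers Itgax rose, at 8.20, 4.78 and 4.40 CPM in KO and 1.89, 2.11 and 1.77 CPM in WT (log2 fold change 1.60, edgeR adjusted p = 0.0472). Of 3 tested CD8 and NK markers, Cd8a and Cd8b1 did not overlap and had log2 fold changes of 0.60 and 0.56 (edgeR adjusted p = 0.294 and 0.185). Klrd1 had the opposite sign, at -0.64, with overlapping groups (edgeR adjusted p = 0.565). The 6 B cell markers summed to 94.2 CPM in WT replicate 1, with 29.5 to 31.3 CPM in KO and 30.0 and 14.7 CPM in the other WT libraries, and had a median log2 fold change of -0.55. The part of these cell types in the results that follow was not tested. None of the markers was at 0 in every library. The 6 erythroid markers were each at 0.527 CPM or less in every library. In bulk samples fewer cells of a type and less RNA per cell cannot be told apart.

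No redox defence gene passed after adjustment, and 8 were higher in KO before it: the factor Nfe2l2, the enzymes Hmox1 and Nqo1, both glutamate-cysteine ligase subunits (Gclc and Gclm), the transferase Gstm1 and both ferritin chains (Fth1 and Ftl1). In the quasi-likelihood test of edgeR, with p adjusted by Benjamini and Hochberg's method across the whole table, 0 of 35 members passed in either direction, against a background of 0.454% of tested genes higher and 0.219% lower in KO (86 genes in all, 0.674%). At an unadjusted p under 0.05 there were 8 members higher in KO (22.9%) and 0 lower, against 8.47% and 6.6% of all tested genes. The median log2 fold change of the members was 0.07, with 22 of 35 above 0, beside a median of -0.003 over all tested genes, of which 49.1% were above 0. The members' median was 0.05 without KO replicate 1, 0.05 without WT replicate 2 and 0.03 without WT replicate 3. Groups did not overlap for 12 members (34.3%), against 22.8% of tested genes. In KO 9 lay above WT and 3 below, against 11.9% and 10.9% over the whole table. DESeq2 called 4 members, all higher in KO (Hmox1, Gclc, Gclm and Ftl1), beside 4.17% of all genes. Without KO replicate 1 edgeR again called 0 members, beside 0.641% of all genes. The edgeR count over all genes rested on single libraries, with 10 genes called without KO replicate 2, 4 without KO replicate 3, 27 without WT replicate 2 and 16 without WT replicate 3.

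**Figure D1:**
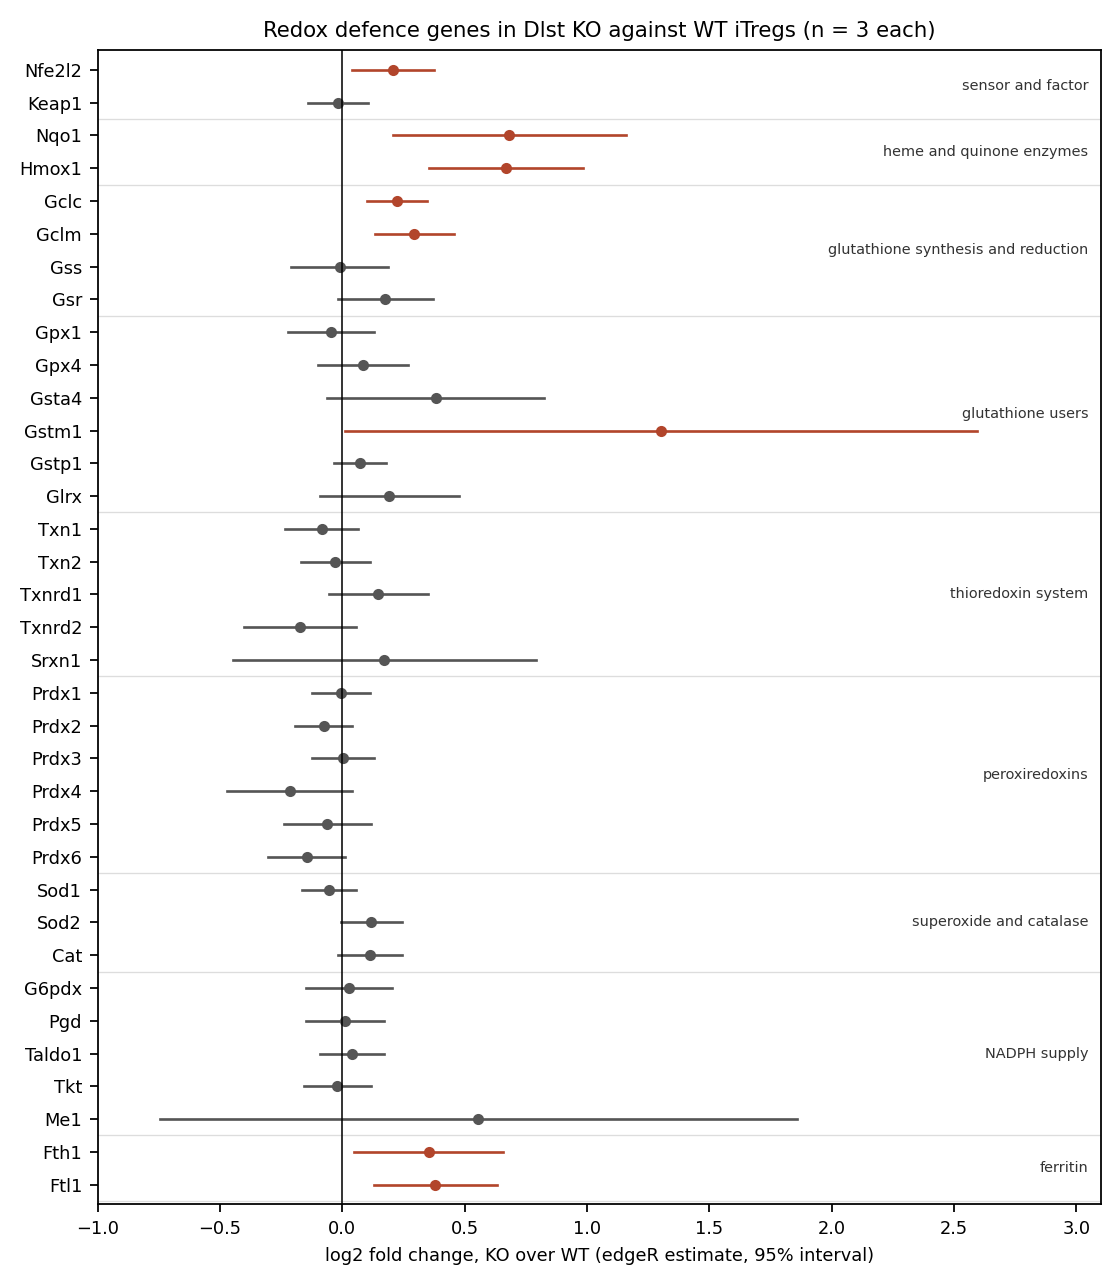
Log2 fold change of each of the 35 members, KO over WT, on the horizontal axis, with points for the edgeR estimate and lines for the 95% interval (n = 3 libraries each), grouped by role from top to bottom. The 8 members in red had an unadjusted p under 0.05 and all lie right of 0, from 0.21 for Nfe2l2 to 1.30 for Gstm1; none passed after adjustment over all genes.

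The factor itself was slightly higher in KO and its sensor had a fold change near 0. Nfe2l2 was at 42.0, 40.0 and 40.2 CPM in KO replicates 1 to 3, against 32.2, 35.3 and 38.3 CPM in WT. The groups did not overlap, but the lowest KO and the highest WT library lay close together. This gave a log2 fold change of 0.21 (SE 0.07, 95% interval 0.04 to 0.37, edgeR adjusted p = 0.242). Keap1, the sensor, was at 70.1, 71.8 and 73.3 CPM in KO and 76.0, 72.3 and 69.7 CPM in WT, with overlapping groups. Its log2 fold change of -0.02 (95% interval -0.14 to 0.10) turned sign without WT replicate 1.

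Hmox1 and Nqo1, genes often used to read NRF2 activity, had the largest log2 fold changes after Gstm1. Hmox1 encodes heme oxygenase, which splits heme into biliverdin, carbon monoxide and iron, and it is also strongly expressed by macrophages. It was at 29.8, 22.7 and 27.1 CPM in KO, against 16.4, 19.3 and 14.4 CPM in WT, so every KO library lay above every WT library. The means were 26.5 ± 3.62 CPM in KO and 16.7 ± 2.51 CPM in WT (SD, n = 3 each). That is a log2 fold change of 0.67 (SE 0.14, 95% interval 0.36 to 0.98), with an edgeR adjusted p = 0.0894 that ranged from 0.000566 with DESeq2 to 0.253 over the alternatives. Without KO replicate 1, where the summed macrophage markers were highest, it was 0.58 (edgeR adjusted p = 0.187). The part of the macrophage markers in the Hmox1 level was not tested. Nqo1, a quinone reductase, was scarce, at 84, 53 and 55 counts in KO and 33, 47 and 46 counts in WT. Scaled to library size these are 1.68, 1.58 and 1.42 CPM in KO, against 0.92, 1.00 and 0.99 CPM in WT, again without overlap. That made a log2 fold change of 0.68 (SE 0.20, edgeR adjusted p = 0.194), and 0.63 without KO replicate 1.

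Among genes of glutathione synthesis, both subunits of the enzyme for the rate-limiting step were higher in every KO library than in every WT library, and the enzyme of the last step was not. Gclc encodes the catalytic subunit of glutamate-cysteine ligase and stood at 57.9, 56.9 and 57.0 CPM in KO, against 50.4, 46.2 and 50.4 CPM in WT. The 3 KO libraries were nearly equal. Its log2 fold change of 0.22 (SE 0.05, 95% interval 0.10 to 0.35) had an edgeR adjusted p = 0.126, and it was 0.22 without KO replicate 1. Gclm, the modifier subunit that raises the enzyme's affinity for glutamate, stood at 41.7, 35.7 and 37.6 CPM in KO and 30.9, 30.8 and 32.1 CPM in WT. It was highest in KO replicate 1, and its log2 fold change was 0.29 (SE 0.07, 95% interval 0.13 to 0.46, edgeR adjusted p = 0.126), or 0.23 without that library. Counts of Gclm were not whole numbers in every library, so part of its reads were shared out between genes or transcripts.

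Per length, in TPM (transcripts per 10⁶, scaled by gene length), the ratio of Gclm to Gclc was 1.66 ± 0.158 in KO and 1.63 ± 0.0410 in WT (SD, n = 3 each). It was compared together with 6 other ratios between members, and differed by less than the spread between replicates (two-sided exact permutation p = 0.8). Gss, glutathione synthetase, was at 17.6 to 21.1 CPM in KO and 18.3 to 20.3 CPM in WT (log2 fold change -0.01, 95% interval -0.21 to 0.19). Gsr, which reduces oxidised glutathione with NADPH, was at 49.5, 47.6 and 43.9 CPM in KO and 46.2, 41.0 and 37.8 CPM in WT. The groups overlapped, and its log2 fold change was 0.18 (95% interval -0.02 to 0.37).

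**Figure D2:**
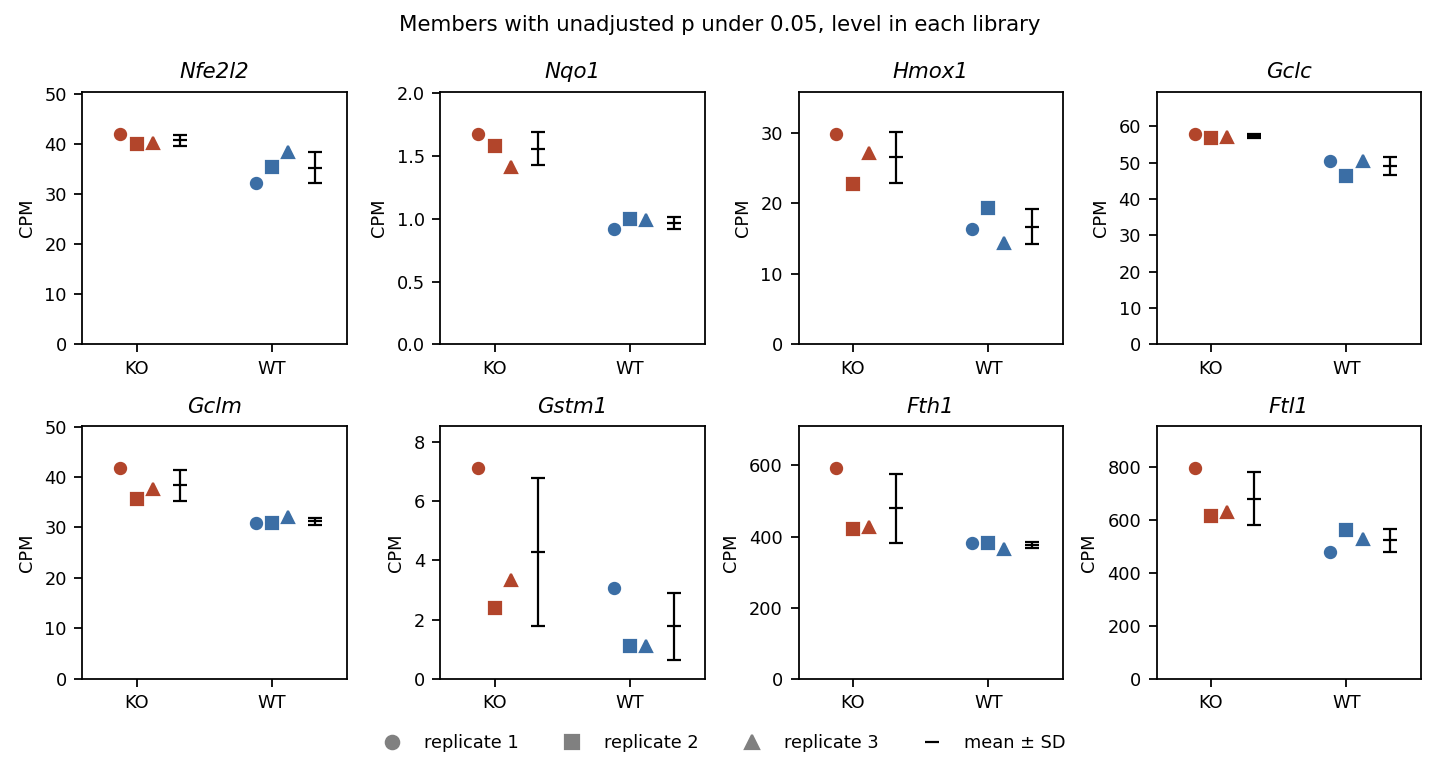
TMM-scaled CPM of the 8 members with an unadjusted p under 0.05, with KO libraries in red left of WT libraries in blue, symbols for the replicate number and bars for the mean ± SD (n = 3 each). KO libraries lie above WT libraries in 7 of the 8 panels, and KO replicate 1 is highest in all 8; in the Gstm1 panel WT replicate 1, at 3.08 CPM, lies above KO replicate 2, at 2.39 CPM.

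No enzyme that spends glutathione passed, and Gpx1, Gpx4 and Gstp1 had fold changes near 0. Gpx1, the cytosolic glutathione peroxidase, was at 93.1, 98.9 and 96.4 CPM in KO, against 88.9, 108 and 101 CPM in WT (log2 fold change -0.05, 95% interval -0.22 to 0.13). Gpx4, which reduces lipid peroxides and protects from ferroptosis, was at 102, 88.1 and 88.2 CPM in KO and 94.6, 84.8 and 83.4 CPM in WT (log2 fold change 0.08, 95% interval -0.10 to 0.27). In both genes the groups overlapped. Gstp1, a glutathione transferase, did not overlap, at 87.5, 87.2 and 86.1 CPM in KO and 80.9, 83.5 and 83.7 CPM in WT. The log2 fold change was 0.07 (95% interval -0.03 to 0.18, edgeR adjusted p = 0.501), and its decimal counts and close paralogues make its level uncertain. Gsta4, a transferase that clears lipid aldehydes, was at 5.38 to 6.79 CPM in KO and 3.96 to 5.92 CPM in WT. Its log2 fold change was 0.38 (95% interval -0.06 to 0.82). Glrx, glutaredoxin, was at 14.5 to 16.9 CPM in KO and 11.9 to 16.0 CPM in WT (log2 fold change 0.19, 95% interval -0.09 to 0.48).

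Gstm1, another glutathione transferase, had the largest log2 fold change of the members and the widest spread. It stood at 7.11, 2.39 and 3.35 CPM in KO replicates 1 to 3, against 3.08, 1.11 and 1.12 CPM in WT replicates 1 to 3. Replicate 1 was the highest library in both groups, and the groups overlapped. The log2 fold change was 1.30 (SE 0.55, edgeR adjusted p = 0.329), with 0.72 without KO replicate 1 and 1.95 without WT replicate 1. Set against the WT library of the same number, the KO level was 2.31, 2.16 and 2.99 times as high. With the replicate number as a block the log2 fold change was 1.29 and the edgeR adjusted p 0.0397. Gstm1 was the 1 member called there, beside 1.39% of all genes. Pairing by number was read from these same data, not from the labels, so the block is no independent support. Gstm1 was also called without both replicate 1 libraries (1.37, edgeR adjusted p = 0.0205). That fit had 2 samples per group, and 4.21% of all genes were called in it. Summed neutrophil markers were also highest in replicate 1 within each group, at 309 CPM in KO and 33.7 CPM in WT. KO replicate 2 was at 78.4 CPM for these markers and 2.39 CPM for Gstm1, and WT replicate 1 at 33.7 and 3.08 CPM. The part of other cell types in the Gstm1 level was not tested, and its decimal counts and near-identical paralogues make that level uncertain.

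The thioredoxins were abundant, and no gene of their system passed. Txn1, the cytosolic thioredoxin that supplies ribonucleotide reductase with electrons, was at 230.3, 263 and 251 CPM in KO and 252, 272 and 265 CPM in WT (log2 fold change -0.08, 95% interval -0.23 to 0.06). Txn2, its mitochondrial counterpart, was at 127, 136 and 134 CPM in KO and 144, 134 and 128 CPM in WT (log2 fold change -0.03, 95% interval -0.17 to 0.11). The groups overlapped in both. Txnrd1, the cytosolic reductase and a known NRF2 target, was at 179, 201 and 192 CPM in KO, against 150.0, 184 and 183 CPM in WT (log2 fold change 0.15, 95% interval -0.06 to 0.35). Txnrd2, the mitochondrial reductase, was at 18.8, 20.4 and 21.1 CPM in KO, against 25.9, 21.3 and 20.8 CPM in WT (log2 fold change -0.17, 95% interval -0.40 to 0.05, or -0.07 without WT replicate 1).

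The cytosolic reductase was more abundant than the mitochondrial one per length, and the ratio of Txnrd1 to Txnrd2 in TPM was 5.22, 5.42 and 5.09 in KO, against 3.22, 4.60 and 4.96 in WT. Groups did not overlap, with WT replicate 1 far below the others. The ratio of Txnrd1 to Txn1 was 0.262, 0.260 and 0.262 in KO and 0.204, 0.230 and 0.237 in WT, again without overlap. For each of these the two-sided exact permutation p was 0.1, the smallest that 3 against 3 libraries allow, and 0.233 adjusted over the 7 ratios. Srxn1, sulfiredoxin, which repairs over-oxidised peroxiredoxins, was at 7.11, 6.54 and 5.25 CPM in KO and 8.11, 4.82 and 3.94 CPM in WT. A log2 fold change of 0.17 (95% interval -0.45 to 0.79) turned sign without WT replicate 3, which was the lowest library.

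Of the 6 peroxiredoxins, the main peroxide-reducing enzymes of the thioredoxin system, none passed. Log2 fold changes ran from -0.21 for Prdx4 to 0.00 for Prdx3. Prdx1, the most abundant of them per length at 518 ± 33.7 TPM in KO and 522 ± 16.3 TPM in WT (SD, n = 3 each), was at 293, 314 and 309 CPM in KO and 314, 297 and 308 CPM in WT. The groups overlapped and its log2 fold change was -0.01 (95% interval -0.12 to 0.11). Prdx6, which uses glutathione rather than thioredoxin, was at 178, 208 and 201 CPM in KO and 225, 212 and 212 CPM in WT. Prdx2 was at 124, 127 and 122 CPM in KO and 128, 136 and 129 CPM in WT. Both were below every WT library in every KO library, with log2 fold changes of -0.14 (95% interval -0.30 to 0.01, edgeR adjusted p = 0.366) and -0.08 (95% interval -0.19 to 0.04, edgeR adjusted p = 0.514). Without KO replicate 1 the log2 fold change of Prdx6 was -0.08. Prdx2 is abundant in red cells, whose markers were near 0 here. The part of such cells in the Prdx2 level was not tested. Prdx3 and Prdx5, of mitochondria and other compartments, were at 80.1 to 85.5 and 52.2 to 55.9 CPM in KO, against 78.6 to 85.9 and 50.3 to 61.5 CPM in WT. Prdx4, of the endoplasmic reticulum, was at 24.3 to 25.1 CPM in KO and 24.5 to 33.8 CPM in WT, with WT replicate 1 highest, and its log2 fold change was -0.08 without that library.

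The superoxide dismutases, which turn superoxide into hydrogen peroxide, did not pass and differed in sign. Sod1, the cytosolic enzyme, was at 217, 230.1 and 230.0 CPM in KO and 235, 234 and 234 CPM in WT. Sod2, the mitochondrial enzyme, was at 69.3, 73.1 and 71.9 CPM in KO and 63.3, 65.2 and 68.8 CPM in WT. In neither gene did the groups overlap. Log2 fold changes were -0.05 for Sod1 (95% interval -0.17 to 0.06) and 0.12 for Sod2 (95% interval -0.00 to 0.24). In TPM the ratio of Sod2 to Sod1 was 0.0367 ± 0.00164 in KO and 0.0319 ± 0.00101 in WT (SD, n = 3 each; two-sided exact permutation p = 0.1, the smallest possible, and 0.233 adjusted over the 7 ratios). Cat, catalase, was at 73.8, 66.0 and 69.9 CPM in KO and 64.8, 66.1 and 63.3 CPM in WT, and the groups overlapped narrowly (log2 fold change 0.11, 95% interval -0.02 to 0.24).

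Pentose phosphate enzymes and malic enzyme, grouped here under NADPH supply, did not pass, and 4 of the 5 had fold changes near 0. NADPH is the electron donor of both the glutathione and the thioredoxin systems. G6pdx, Pgd and Me1 encode enzymes that make it, while Tkt and Taldo1 encode pentose phosphate enzymes that do not. Tkt, transketolase, was at 348, 358 and 362 CPM in KO and 388, 344 and 351 CPM in WT (log2 fold change -0.02, 95% interval -0.16 to 0.12). Taldo1, transaldolase, was at 103, 93.6 and 96.2 CPM in KO and 98.6, 93.3 and 93.0 CPM in WT (log2 fold change 0.04, 95% interval -0.09 to 0.17). The dehydrogenases of the oxidative pentose phosphate branch overlapped between groups, with G6pdx at 68.0 to 72.1 CPM in KO and 62.5 to 75.6 CPM in WT, and Pgd at 92.7 to 95.8 CPM in KO and 87.5 to 103 CPM in WT. Their intervals were -0.15 to 0.20 and -0.15 to 0.17 on the log2 scale. Me1, cytosolic malic enzyme, was nearly absent, with 21, 8 and 5 counts in KO and 3, 12 and 9 counts in WT. The log2 fold change of 0.56 (95% interval -0.74 to 1.86) could not show a difference at this depth.

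Ferritin, the iron storage shell and the most abundant of the members per length, carried the largest absolute difference. Ftl1, the light chain, averaged 1248 ± 186 TPM in KO and 961 ± 66.9 TPM in WT, and Fth1, the heavy chain with ferroxidase activity, 927 ± 170 TPM in KO and 729 ± 19.5 TPM in WT (SD, n = 3 each). Scaled to library size, Ftl1 was at 794, 615 and 628 CPM in KO, against 478, 562 and 525 CPM in WT. Fth1 was at 592, 421 and 426 CPM in KO, against 381, 381 and 365 CPM in WT. Neither gene overlapped between groups, and KO replicate 1 was well above the other KO libraries in both. As for Gclm, counts of Ftl1 had decimals, so part of its reads were shared out between genes or transcripts. Log2 fold changes were 0.38 for Ftl1 (SE 0.11, 95% interval 0.13 to 0.63, edgeR adjusted p = 0.181) and 0.35 for Fth1 (SE 0.13, 95% interval 0.05 to 0.66, edgeR adjusted p = 0.274).

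Without KO replicate 1 the ferritin log2 fold changes were 0.25 for Ftl1 and 0.17 for Fth1, and without both replicate 1 libraries 0.19 and 0.18. Summed neutrophil and macrophage markers were also highest in KO replicate 1 and their part in the ferritin level was not tested. Ferritin is abundant in macrophages. The ratio of Fth1 to Ftl1 in TPM was 0.740 ± 0.0274 in KO and 0.762 ± 0.0740 in WT, with overlapping groups (two-sided exact permutation p = 0.9).

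Summed over all 35 members, TPM were 6617, 6158 and 6119 in KO, against 5905, 5829 and 5847 in WT. That is 0.630% of the total in KO and 0.586% in WT. Without ferritin the other 33 members summed to 4031, 4199 and 4138 TPM in KO, against 4267, 4089 and 4153 TPM in WT, so that the groups overlapped. Ferritin alone summed to 2587, 1959 and 1981 TPM in KO, against 1638, 1740 and 1694 TPM in WT. KO replicate 1 was the highest of the 6 libraries for 16 of 35 members (45.7%), against 27.9% of all tested genes, and WT replicate 1 for 11 (31.4%), against 24.6%. Among members with no overlap that were higher in KO, KO replicate 1 was highest for 8 of 9 (88.9%), against 67.6% of the 1519 such genes in the whole table.

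**Figure D3:**
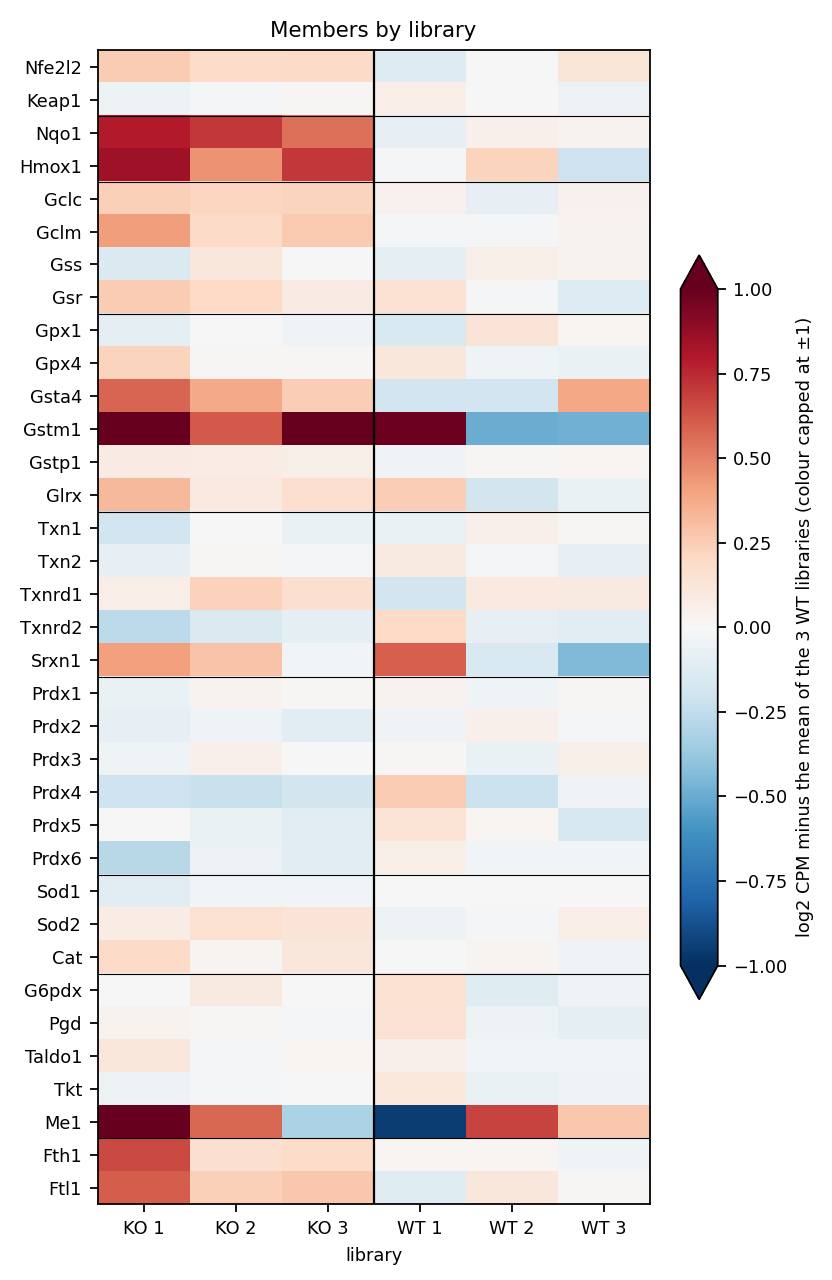
Level of each member (rows, ordered by role) in each library (columns, KO left of WT), as log2 CPM minus the mean of the 3 WT libraries, with red above and blue below that mean and the colour capped at 1 log2 unit. Nqo1, Hmox1, Gclc, Gclm, Fth1 and Ftl1 are red in all 3 KO columns with KO replicate 1 the highest column; Gstm1, Srxn1 and Me1 vary within WT, and Prdx6 and Txnrd2 are bluest in KO replicate 1.

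The 8 members with an unadjusted p under 0.05 stayed above 0 in each of the 16 alternative settings, which refit the same libraries. For 7 of them the groups did not overlap, so leaving out a library could hardly turn the sign. The held sign is therefore no independent support. Sizes did move, from 0.72 to 1.95 for Gstm1, from 0.39 to 0.75 for Nqo1, from 0.17 to 0.44 for Fth1 and from 0.19 to 0.45 for Ftl1 over these settings. No member of these 8 lies within 1 Mb of a gene called over all genes (GENCODE M21, GRCm38). The closest was Hmox1 (chromosome 8, 75093621 to 75100589), 2.79 Mb from Hmgn2-ps, which was higher in KO. Of all members 4 lie within 1 Mb of a called gene, Gss, Txn2, Prdx1 and Taldo1, and their log2 fold changes lay between -0.03 and 0.04.

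**Figure D4:**
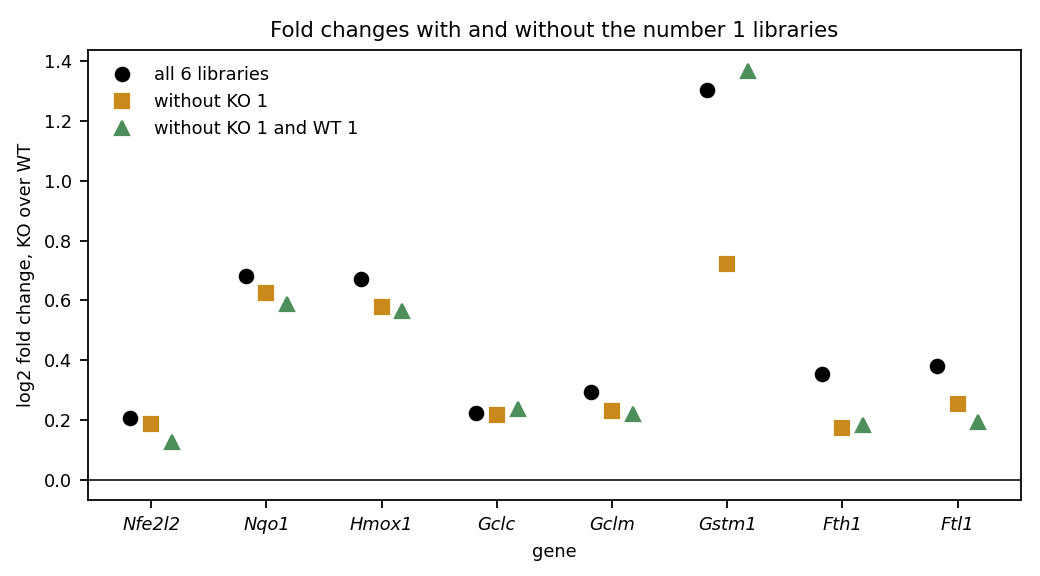
Log2 fold change, KO over WT, of the 8 members with an unadjusted p under 0.05, from all 6 libraries (circles), without KO replicate 1 (squares) and without both replicate 1 libraries (triangles). Fth1 stands at 0.35, 0.17 and 0.18 in that order and Gstm1 at 1.30, 0.72 and 1.37; Nqo1, Hmox1 and Gclc move by about 0.1 or less.

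Other genes of the NRF2, glutathione, thioredoxin and iron systems were read from a list of 88, of which 81 were tested. Over all genes 1 rose, Esd, and 0 fell, against the background of 0.454% and 0.219%. Esd, which hydrolyses S-formylglutathione, was at 76.6, 70.0 and 66.7 CPM in KO, against 36.6, 40.8 and 36.0 CPM in WT. On the log2 scale it was 0.91 higher in KO (SE 0.07, edgeR adjusted p = 0.0065), and it passed in every alternative setting. It lies on chromosome 14, 4.54 Mb from Rgcc, another called gene that was higher in KO. At an unadjusted p under 0.05 there were 13 of these genes higher and 6 lower in KO (16.0% and 7.41%), against 8.47% and 6.6% of all tested genes. Their median log2 fold change was 0.02. The 14 tested genes listed as other NRF2 targets had a median of -0.04, with 6 above 0 and 8 below. Of these 14, 1 was higher and 2 were lower in KO at an unadjusted p under 0.05 (7.14% and 14.3%).

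Bach1, the heme-sensing repressor of antioxidant response elements, was at 35.2, 31.5 and 33.2 CPM in KO and 25.6, 23.7 and 26.3 CPM in WT. The groups were well apart, with a log2 fold change of 0.40 (SE 0.07, 95% interval 0.25 to 0.56) and an edgeR adjusted p = 0.0526 that ranged from 0.000591 to 0.21 over the alternatives. It passed with the replicate block (edgeR adjusted p = 0.0437) and without both replicate 1 libraries (0.0253). That block, used for the next gene too, follows a pairing read from these same data, not from the labels. Slc40a1, ferroportin, the iron exporter that macrophages carry, had 50, 17 and 24 counts in KO, against 6, 2 and 3 counts in WT. It was at 3.01 on the log2 scale (SE 0.53, edgeR adjusted p = 0.0596, or 0.0393 with the replicate block). Its highest library was again KO replicate 1.

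Ncoa4, which delivers ferritin to lysosomes, was at 158, 154 and 157 CPM in KO and 121, 136 and 138 CPM in WT (log2 fold change 0.25, SE 0.06, edgeR adjusted p = 0.147). The cystine importer gene Slc7a11 was at 16.5, 7.71 and 8.06 CPM in KO and 6.16, 5.16 and 5.38 CPM in WT. On the log2 scale the difference was 0.96 (SE 0.30, edgeR adjusted p = 0.215), and 0.50 without KO replicate 1. Ephx1, an epoxide hydrolase, had the opposite sign, at 44.5, 52.8 and 47.2 CPM in KO and 61.1, 61.5 and 52.8 CPM in WT (log2 fold change -0.28, SE 0.09, edgeR adjusted p = 0.196).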

How the data were processed

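Bulk mRNA libraries of 3 KO and 3 WT iTreg samples were analysed. Per the submitters' processing notes, reads were handled with FastQC and HISAT2; the sources used here do not name the counting program, genome build or annotation. Coordinates were taken from GENCODE M21 (GRCm38) through the deposited gene identifiers. The authors deposited estimated counts and TPM per gene, per the file headers. Estimated counts had decimals for 23.5 to 25.2% of genes and were rounded. Of 21899 listed genes, 12768 passed edgeR's filterByExpr at its defaults. The test of KO against WT was two-sided, from edgeR 4.0.16 (R 4.3.3; quasi-likelihood) with TMM scaling, robust dispersion and genotype as the single term, with Benjamini-Hochberg adjustment over all tested genes at 0.05. Log2 fold changes are KO minus WT, and the SE is the log2 fold change over the root of F. DESeq2 1.42.0, limma 3.58.1 on log2(TPM + 1) and log2(TPM + 0.1), other filters and scaling, left-out libraries and a replicate block were alternatives.

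Replicate numbers were taken to pair the samples because deviations from the group means correlated at 0.192, 0.172 and 0.137 for numbers 1 to 3, over 9829 genes. Pairs of unlike number ran from -0.178 to 0.122, the last for KO replicate 3 with WT replicate 2, little below 0.137. The pairing comes from the data, not the labels. The members, lists and tests were chosen with earlier results of these data known. Values in every sample are given for members with p under 0.05, with no overlap, or among the 2 highest in TPM of their role. Genes outside the list of members were named if called or among the 6 smallest p of their list. Mrc1, C3ar1, Itgax, Ikzf2, Hmgn2-ps and Rgcc were named from their calls over all genes. Ddx3y, Cd8a and Cd8b1 were chosen after their values were seen, as were the other uncalled markers named, apart from Foxp3. The ratios between members were chosen after fold changes were seen.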

Additional observations from a re-analysis of the deposited data

How the results depend on the processing

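The count of 0 members called by edgeR stood in every fit that left out 1 library (0 to 0) and became 4 with DESeq2, 1 without KO replicate 1 and WT replicate 1 together and 1 with the replicate block. The replicate block changed no other member's call. Genes called over all genes numbered 86, and 532 with DESeq2, 133 with no low-count filter, 538 without both replicate 1 libraries, 8 with KO replicates 2 and 3 summed, 177 with the replicate block, 49 with limma on log2(TPM + 1), 5 with limma and no filter, and 4 to 93 with 1 library left out. The 1 other redox gene called became 6 with DESeq2, 3 with no low-count filter, 5 without both replicate 1 libraries, 5 with the replicate block and 1 to 2 with 1 library left out. The members' median log2 fold change was 0.028 to 0.0851 with 1 library left out. Signs turned for 12 members, of which Me1 (0.56) and Srxn1 (0.17) had the log2 fold changes farthest from 0. With 1 library left out the ranges were Keap1 -0.0487 to 0.0143, Txn2 -0.0691 to 0.0168, Tkt -0.0528 to 0.0332, Prdx5 -0.136 to 0.00704, Prdx3 -0.0304 to 0.0319, Gss -0.0737 to 0.0553, Prdx1 -0.0268 to 0.0239, Pgd -0.0365 to 0.0851, G6pdx -0.0295 to 0.108, Srxn1 -0.0311 to 0.525 and Gpx1 -0.12 to 0.0216. Without both replicate 1 libraries Keap1 was 0.0318, Txn2 0.0463, Tkt 0.0499, Gss 0.0091, Prdx1 0.0407 and Me1 -0.312. Prdx3 was -0.0102 with KO replicates 2 and 3 summed, and -0.0004, -0.000393 and -0.0004 in the 3 limma settings. The causes were not tested. Of the single-member values under alternatives, 519 kept their direction and side of the threshold, 29 turned sign and 6 passed it. Depth limits Me1, with 34 counts over KO and 24 over WT, and Nqo1, with 192 and 126.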
